A study of Homo sapiens with 6 samples.

Results

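Immediate early genes of the EGR, FOS, JUN, IER2 and NR4A1 group were followed after knockdown of LEF1 in BL2, an established cell line from a human Burkitt lymphoma. The list held 10 symbols, and a gene was kept where at least 1 probe set of the array named it alone. This gave 9 of the 10 genes, at 19 probe sets, of 19775 genes so named in all. EGR2 had no probe set that named it here and was not analysed here. The tested cultures received a pool of 4 siRNAs against LEF1 and the control cultures a scrambled siRNA, with 3 arrays per group. All 6 cultures were BL2 cells in complete RPMI that had been electroporated, so the delivery itself is common to both groups. The arrays carry batch labels 1 to 3, with 1 array per group under each label, and the labels do not say what a batch stands for. The labels state no time after electroporation and no stimulus.

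Immediate early genes are switched on within minutes of a signal, from factors already present in the cell, and their transcripts are short-lived. Growth factor, antigen receptor and stress signals reach them through the MAP kinases, serum response factor with its ETS partners, and CREB-type factors. FOS and JUN proteins pair as AP-1, EGR proteins are zinc finger factors, and in B cells this programme follows antigen receptor engagement.

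LEF1, the targeted gene, read 8.21, 8.09 and 8.67 (log2) in batches 1, 2 and 3 with LEF1 siRNA at its brightest probe set, against 11.09, 10.58 and 11.45 with scrambled siRNA. That left 15.2% of the scrambled siRNA signal (limma adjusted p = 7.46e-11 with batch as a block, 0.0213 without), and all 3 LEF1 probe sets were lower in each batch. The 9 measured B cell and Burkitt marker genes all lay above the median level of all probe sets, with IGHM brightest at 14.2. Myeloid markers had 1 of 7 genes above that median, epithelial 2 of 5, fibroblast 3 of 5 and T and NK cell markers 6 of 9, the brightest being ZAP70 at 8.34. Of the 9 T and NK markers, 3 were called lower with LEF1 siRNA with batch as a block, as was 1 of the 9 B cell markers, where 1.70% of all genes were called lower. The mean of the T and NK list ran from 7.12 to 7.20 on LEF1 siRNA arrays and from 7.21 to 7.23 on scrambled siRNA arrays. The ACTB difference between 3' and 5' control probe sets ran from 0.183 to 0.297 (log2) on LEF1 siRNA arrays and from -0.0284 to 0.0967 on scrambled siRNA arrays. These ranges did not overlap (exact permutation test, two-sided p = 0.1, the smallest that 3 against 3 arrays allow). The GAPDH difference ran from 0.0372 to 0.0993 over the 6 arrays and overlapped between groups. The part of these shifts in the results below was not tested. In bulk RNA, fewer cells that express a gene and less RNA per cell cannot be told apart.

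Values below are log2 expression per probe set, errors are SDs over 3 arrays, and differences are LEF1 siRNA minus scrambled siRNA. Levels of different probe sets are not compared. The median level of all probe sets was 6.91, and a value near or below it can hold mostly background, which compresses a change. The siRNA effect was fitted with limma without a block and again with batch as a replicate block, and the adjusted p (Benjamini-Hochberg over 54613 probe sets) had to fall below 0.05.

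The brightest EGR1 probe set was the only one of the 19 that passed, and only with batch as a block. Without the block 0 of 19 passed, against 0.0183% of all probe sets, and 0 had an unadjusted limma p below 0.05, against 7.84% of all. With batch as a block 1 passed, higher with LEF1 siRNA, against 6.09% of all probe sets, 4.58% called higher and 1.51% lower. The split of those calls moves with the scaling, at 2501 higher and 827 lower as deposited, 1863 and 1452 after quantile normalization, 1948 and 1292 after cyclic loess, and 971 and 7826 when scaled to the poly-A spike-ins. In the deposited values 7 of the 19 had an unadjusted p below 0.05 with the block, 6 higher and 1 lower, against 17.1% of all. LEF1 siRNA and scrambled siRNA arrays overlapped at all 19 probe sets, while 12.5% of all probe sets showed no overlap. A rise in all 3 batches was seen at 7 of the 19 and a fall in all 3 at 4, against 22.1% and 14.4% of all. The median difference was 0.05 over the 19 and 0.0113 over all probe sets. At the brightest probe set per gene, 7 genes had a difference above 0 and 2 below, with a median of 0.162 against 0.0195 over all genes. Scaled to the poly-A spike-ins the same 9 probe sets had 5 above 0 and 4 below, with a median of 0.042.

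**Figure D1:**
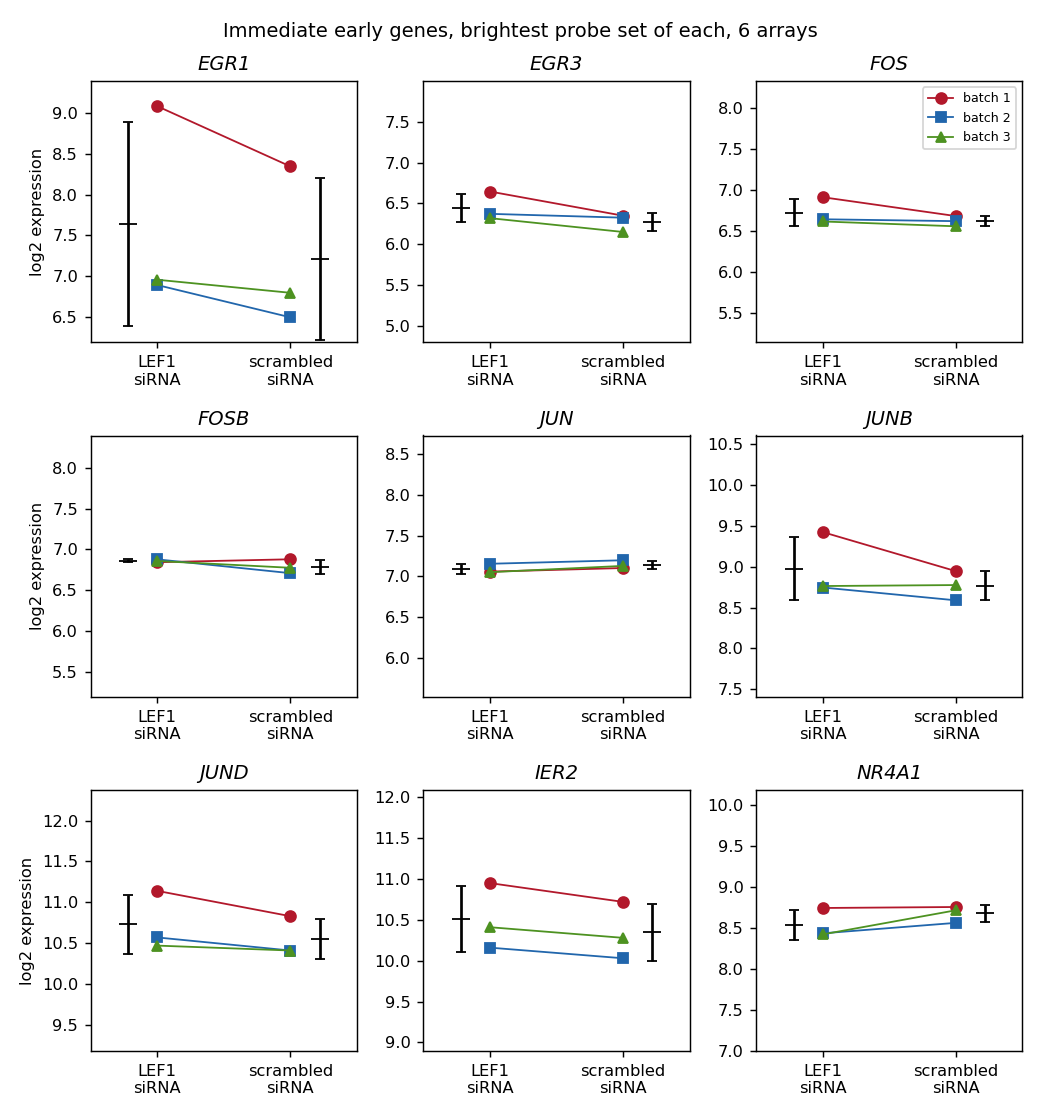
Log2 expression (vertical axis, of equal height in every panel) at the brightest probe set of each of 9 immediate early genes on LEF1 siRNA arrays (left) and scrambled siRNA arrays (right). Lines join the 2 arrays of a batch, and black bars give mean and SD over 3 arrays. Batch 1 stands above the other batches for EGR1, JUNB, JUND and IER2 in both groups, and by less for EGR3, FOS and NR4A1.

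EGR1 encodes an early-induced zinc finger activator that binds GC-rich sites. Its brightest probe set read 9.08, 6.89 and 6.96 in batches 1, 2 and 3 with LEF1 siRNA, against 8.35, 6.50 and 6.80 with scrambled siRNA. The batch 1 arrays are far above the other 4, and within each batch the LEF1 siRNA array is the higher one. Group means were 7.64 ± 1.25 with LEF1 siRNA and 7.21 ± 0.99 with scrambled siRNA (SD, n = 3 each), so the group difference lay within the spread of either group. The within-batch differences were 0.736, 0.394 and 0.160, which average 0.43, or 1.35-fold. The limma adjusted p was 0.00716 with batch as a block (95% interval 0.249 to 0.611) and 0.960 without (interval -1.06 to 1.92). With the block, the p and interval of any probe set rest more on spread borrowed from other probe sets than on its own. The EGR1 within-batch differences of 0.736 and 0.160 lie outside the interval with the block, so that interval understates the spread between batches. Over the alternatives fitted with the block on all 6 arrays the limma adjusted p ran from 0.00352 to 0.0147. With batch 2 or batch 3 left out it was 0.0290 and 1.73e-08, at differences of 0.448 and 0.565. Fits of 4 arrays have fewer residual degrees of freedom and rest more on spread borrowed from other probe sets. A smaller p there is not stronger evidence than that of 6 arrays, for any gene with a batch left out. For the brightest LEF1 probe set the limma adjusted p with the block was 8.14e-35 without batch 1, against 7.46e-11 on 6 arrays. Leaving out both arrays of batch 1 lowered the EGR1 difference to 0.277 (limma adjusted p = 0.0191 with the block). In the 4 arrays that remain, levels ran from 6.50 to 6.96, around the median of all probe sets.

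The other EGR1 probe sets moved less. The probe set of middle brightness read 7.87, 6.73 and 6.79 with LEF1 siRNA, against 7.40, 6.59 and 6.69 with scrambled siRNA. It too was higher in each batch and highest on the batch 1 arrays, at a difference of 0.24 (limma adjusted p = 0.0655 with the block, 0.950 without). The dimmest read 6.96, 6.95 and 6.74 with LEF1 siRNA and 6.904, 6.77 and 6.82 with scrambled siRNA. Its groups overlapped at a difference of 0.05, which turned to -0.07 under scaling to the poly-A spike-ins.

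The 250 bases upstream of the EGR1 start (RefSeq, GRCh38.p14, chr5:138465229-138465478, plus strand) are shown because this is the member that changed most between batches and between siRNAs. Capitals mark 2 CArG boxes, the serum response factor site, which begin 105 and 83 bases before the start, and 2 copies of the cAMP response core TGACGT, both on the opposite strand.
EGR1: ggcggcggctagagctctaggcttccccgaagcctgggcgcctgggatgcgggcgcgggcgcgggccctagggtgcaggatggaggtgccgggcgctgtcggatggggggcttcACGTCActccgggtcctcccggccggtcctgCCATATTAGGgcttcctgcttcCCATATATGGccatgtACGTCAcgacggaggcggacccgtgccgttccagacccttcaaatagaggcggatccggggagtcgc
Of 35116 promoter windows of this length, 1.16% held a CArG box and 7.10% held TGACGT on either strand. EGR1 was the only 1 of the 8 members searched to hold a CArG box in this window, and TGACGT stood in 4 of the 8. The window of EGR3 was not searched, and neither was sequence more than 250 bases upstream of any member. Another 5 motifs were searched on both strands, the AP-1 site TGACTCA (4.20% of all windows), its JUN-promoter variant TGACATCA (2.37%), the full cAMP response element TGACGTCA (1.65%), the EGR site GCGTGGGCG (0.72%) and the TCF/LEF core CTTTGAT (2.26%). No member window searched held TGACTCA, GCGTGGGCG or CTTTGAT, which says only that these letters are not in these windows.

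EGR3, an EGR1 relative induced in lymphocytes, read 6.65, 6.37 and 6.32 with LEF1 siRNA, against 6.35, 6.33 and 6.15 with scrambled siRNA. All 6 values lie below the median of all probe sets, and the groups overlap. It differed by 0.171 (interval 0.0375 to 0.304), with limma adjusted p = 0.145 with the block and 0.784 without, the lowest of the 19 without it.

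The FOS genes encode AP-1 subunits that bind DNA as partners of JUN proteins. FOS read 6.91, 6.64 and 6.62 with LEF1 siRNA, against 6.68, 6.62 and 6.56 with scrambled siRNA. Only the LEF1 siRNA array of batch 1 reached the median of all probe sets. The difference was 0.104 (limma adjusted p = 0.442 with the block, interval -0.0259 to 0.235), and it turned to -0.0154 under poly-A spike-in scaling. FOSB read 6.84, 6.88 and 6.86 with LEF1 siRNA, against 6.88, 6.71 and 6.78 with scrambled siRNA. These groups overlap at the median level or below it. Its difference of 0.0718 (limma adjusted p = 0.645 with the block) turned to -0.048 under poly-A spike-in scaling.

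JUN, JUNB and JUND are the 3 JUN-type AP-1 subunits, of which JUN is the stronger activator, JUNB often a restraint on it, and JUND the one present in resting cells. JUN was level at its brightest probe set, which read 7.06, 7.15 and 7.05 with LEF1 siRNA and 7.10, 7.20 and 7.13 with scrambled siRNA. The difference was -0.055 (limma adjusted p = 0.728 with the block, interval -0.175 to 0.0648). Its 3 other probe sets lay below the median of all and differed by 0.093, 0.0247 and -0.0329. The array maker marks the first of them as holding probes that can match other transcripts. The differences of 0.093 and 0.0247 turned to -0.0269 and -0.0951 when scaled to the poly-A spike-ins. The JUN upstream window (chr1:58784048-58784297, minus strand, GRCh38.p14, RefSeq) is shown for contrast with EGR1, with its TGACATCA site in capitals 67 bases before the start, a site at which AP-1 and ATF2 are known to act on the gene.
JUN: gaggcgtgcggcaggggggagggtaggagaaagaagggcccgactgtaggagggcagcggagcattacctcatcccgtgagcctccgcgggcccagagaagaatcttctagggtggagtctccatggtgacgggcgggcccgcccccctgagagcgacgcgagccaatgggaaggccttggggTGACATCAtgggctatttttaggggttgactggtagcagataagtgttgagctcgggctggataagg
Neither a CArG box nor TGACGT was found in this JUN window.

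JUNB read 9.42, 8.75 and 8.76 with LEF1 siRNA, against 8.95, 8.59 and 8.78 with scrambled siRNA. The batch 1 arrays are the highest in each group. The within-batch differences of 0.478, 0.157 and -0.0114 average 0.208 (limma adjusted p = 0.159 with the block, interval 0.0413 to 0.375, and 0.897 without). Leaving out both arrays of batch 3 brought JUNB past the threshold at 0.318 (limma adjusted p = 0.00271 with the block). With both arrays of batch 1 left out instead, JUNB differed by 0.0729 (limma adjusted p = 0.755 with the block).

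JUND gave probe sets that disagree. The brightest read 11.14, 10.57 and 10.47 with LEF1 siRNA, against 10.83, 10.41 and 10.41 with scrambled siRNA. It was higher with LEF1 siRNA in each batch, by 0.312, 0.159 and 0.0568, and it averaged 0.176 (limma adjusted p = 0.132 with the block, interval 0.0424 to 0.31). That probe set also passed once batch 3 was left out (0.236, limma adjusted p = 0.0414 with the block). With batch 1 left out instead, it differed by 0.108 (limma adjusted p = 0.56 with the block). The next 2 in brightness differed by -0.0576 and -0.112, and the dimmest by 0.0277, which turned to -0.0921 when scaled to the poly-A spike-ins. On that scale the probe set at -0.112 passed as lower, at -0.232 (limma adjusted p = 0.0342 with the block), while the brightest stayed above 0 at 0.0563. Of all 54613 probe sets 7826 passed as lower on that scale. The array maker marks the middle pair as holding probes that can also match other transcripts. The JUND window (chr19:18281623-18281872, minus strand, GRCh38.p14, RefSeq) is shown because it holds cAMP response elements, the full TGACGTCA at 200 bases before the start and the core on the opposite strand at 87, both in capitals.
JUND: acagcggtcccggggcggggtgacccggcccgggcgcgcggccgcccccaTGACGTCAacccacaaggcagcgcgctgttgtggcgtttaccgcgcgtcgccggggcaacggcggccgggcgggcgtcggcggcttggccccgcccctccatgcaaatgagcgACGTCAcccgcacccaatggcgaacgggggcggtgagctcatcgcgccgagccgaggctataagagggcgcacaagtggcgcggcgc
The full element contains the core on both strands, so these matches overlap.

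IER2, an early-induced nuclear regulator, read 10.95, 10.16 and 10.41 with LEF1 siRNA, against 10.72, 10.03 and 10.28 with scrambled siRNA. Each batch shows the LEF1 siRNA array above its partner, by 0.227, 0.128 and 0.131, yet the batches differ by more than the siRNAs. These average 0.162 (interval 0.0395 to 0.284), with limma adjusted p = 0.130 with the block and 0.953 without.

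NR4A1, an orphan nuclear receptor induced by antigen receptor signals, ran the other way at its brightest probe set. It read 8.75, 8.44 and 8.42 with LEF1 siRNA, against 8.76, 8.56 and 8.72 with scrambled siRNA, and no batch had the LEF1 siRNA array higher. The difference was -0.145 (limma adjusted p = 0.255 with the block, interval -0.282 to -0.00822), and it passed under poly-A spike-in scaling at -0.265 (limma adjusted p = 0.0147 with the block). On that scale 2 of the 19 member probe sets passed as lower, against 7826 of all 54613, so this call does not set NR4A1 apart. The other NR4A1 probe sets differed by 0.0386 and -0.0671. The first of these turned to -0.0135 after quantile normalization, -0.00173 after cyclic loess and -0.0813 on the poly-A scale. The array maker marks the NR4A1 probe sets at -0.145 and -0.0671 too as holding probes that can match other transcripts.

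Poly-A spike-in scaling lowers every difference by 0.12, the amount by which the spike-ins stood higher on LEF1 siRNA arrays, and moves the median of all probe sets to -0.109. On that scale the median of the 19 members was -0.0698, and the brightest EGR1 probe set remained past the threshold at 0.31 (limma adjusted p = 0.0147 with the block).

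**Figure D2:**
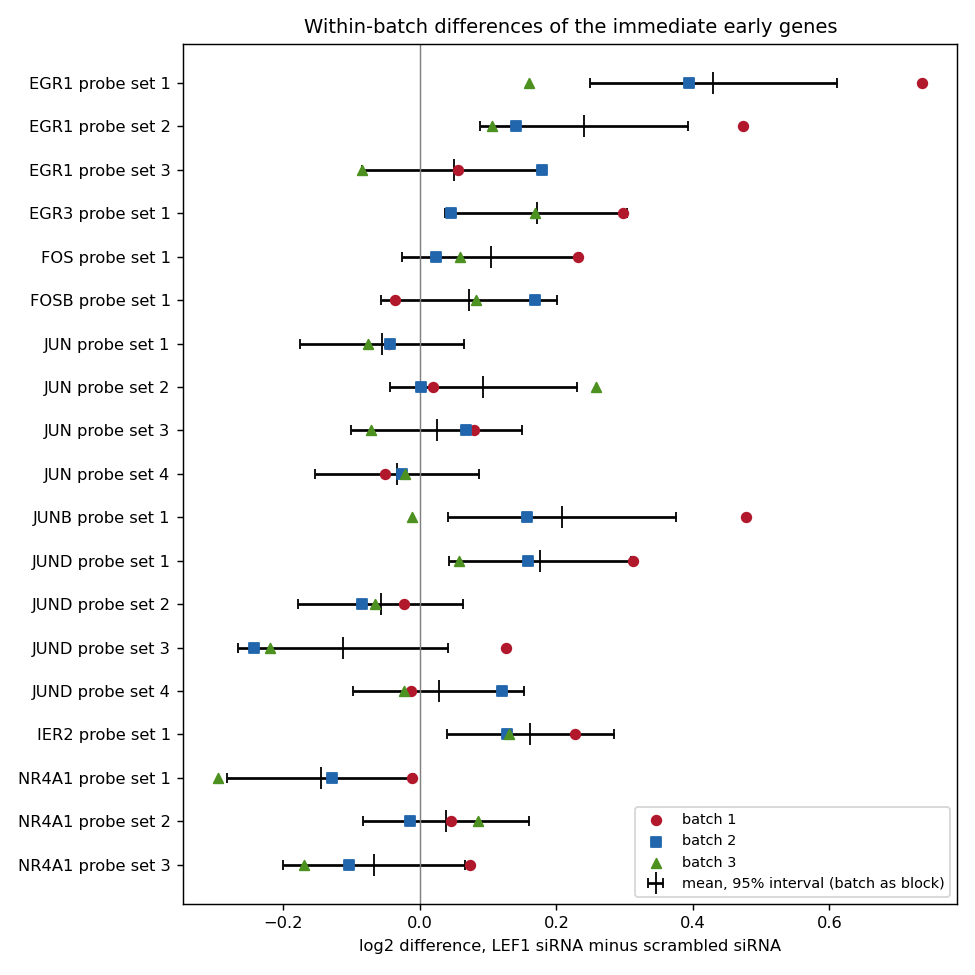
Log2 difference, LEF1 siRNA minus scrambled siRNA (horizontal axis), within each batch (coloured symbols) and on average with the 95% interval of the fit with batch as a block (black), for 19 probe sets numbered from the brightest down within each gene. EGR1 probe sets 1 and 2 are higher in all 3 batches, and NR4A1 probe set 1 is lower in all 3.

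For EGR1, JUNB, JUND and IER2 the arrays differed more between labelled batches than between siRNAs. A moderated F test in limma for batch, with siRNA in the model, was added after the levels were seen. It called 7 of the 19 probe sets, from EGR1, JUNB, JUND and IER2, against 13.7% of all probe sets. The count was 8 after quantile normalization or cyclic loess (9.77% and 9.79% of all) and 7 with equal medians (15% of all). Scaled to the poly-A spike-ins all 19 were called, with 89.1% of all probe sets, so that scale does not set the members apart. Of these 7, 6 did not pass for siRNA. Both arrays of batch 1 lay above the other 4 at 9 of the 19 probe sets, against 6.23% of all. With quantile normalization, equal medians or cyclic loess that count was 10 (7.16%, 6.75% and 7.23% of all), and with poly-A spike-in scaling it was 5, against 1.21% of all.

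At the brightest EGR1 probe set the 2 arrays of batch 1 averaged 1.93 above the other 4, a 3.80-fold difference (limma batch adjusted p = 1.94e-07). Over the 3 scrambled siRNA arrays alone its SD of 0.991 was exceeded by 1 of 54613 probe sets. The middle EGR1 probe set stood 0.932 higher in batch 1. IER2 stood 0.615 higher (limma batch adjusted p = 7.94e-05), the brightest JUND probe set 0.52 (0.000735) and JUNB 0.466 (0.00529). These gaps moved little with the scaling, from 1.92 to 1.96 for EGR1 and from 0.458 to 0.514 for JUNB. FOSB and the brightest JUN probe set differed between batch 1 and the rest by 0.0557 and -0.0523 (limma batch adjusted p = 0.828 and 0.587). FOS stood 0.188 higher (0.140), EGR3 0.206 (0.0777) and the brightest NR4A1 probe set 0.217 (0.0916), none of which passed as deposited. The GAPDH difference between 3' and 5' control probe sets was lowest on both batch 1 arrays, at 0.0385 with LEF1 siRNA and 0.0372 with scrambled siRNA, against 0.0608 to 0.0993 on the other 4, and its part in these gaps was not tested.

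Other genes of the early response were taken from a list of 31, of which 30 were named by a probe set here. At the brightest probe set of each, 14 of the 30 had both batch 1 arrays above the other 4, against 4.99% of all genes, and 17 were called for batch, against 17.4% of all genes. The gaps of the 14 ran from 0.0553 to 1.48, and the list's median was 0.213 against -0.0055 over all genes. TNFAIP3, an NF-kappaB feedback inhibitor, read 10.87, 9.33 and 9.37 with LEF1 siRNA and 10.67, 9.23 and 9.22 with scrambled siRNA. ZFP36, which encodes an mRNA decay factor, read 10.51, 9.19 and 9.11 with LEF1 siRNA and 9.84, 8.86 and 9.01 with scrambled siRNA. In both genes the batch 1 arrays of either group stand alone at the top. Not every early gene shared this. MYC differed between batch 1 and the rest by 0.016, ATF3 by 0.0174 and DUSP1, a MAP kinase phosphatase, by -0.133. ZFP36, MYC, ATF3 and DUSP1 were chosen here after their values were seen.

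Among probe sets above the median level, the 5 genes whose centred levels came closest to those of EGR1 over the 6 arrays were RGS1, TNFAIP3, CD83, ZFP36L1 and ICAM1. Likeness is the root mean square difference of levels centred on each gene's mean, and it ran from 0.278 for RGS1 to 0.356 for ICAM1 (log2). RGS1, a regulator of G protein signalling, read 8.30, 6.51 and 6.81 with LEF1 siRNA, against 7.77, 6.49 and 6.71 with scrambled siRNA. The batch 1 arrays stand apart in both groups, which the choice of these 5 genes by likeness to EGR1 fixes. The higher LEF1 siRNA arrays of EGR1 entered that choice too, so the siRNA differences of these 5 genes are not independent of it. The activation marker CD83 rose by 0.85 with LEF1 siRNA and ZFP36L1 by 0.798 (limma adjusted p = 1.5e-05 for each with the block, 0.809 and 0.791 without). RGS1, TNFAIP3 and ICAM1 differed by 0.215, 0.151 and 0.285 and did not pass (limma adjusted p = 0.174, 0.161 and 0.191 with the block). The ICAM1 probe set nearest to EGR1 is not its brightest, which differed by 0.127 (limma adjusted p = 0.676 with the block). The genes nearest to JUN were MUC3, GP1BA, FLOT1, EXTL3 and ERGIC1, at 0.00793 to 0.0174.

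**Figure D3:**
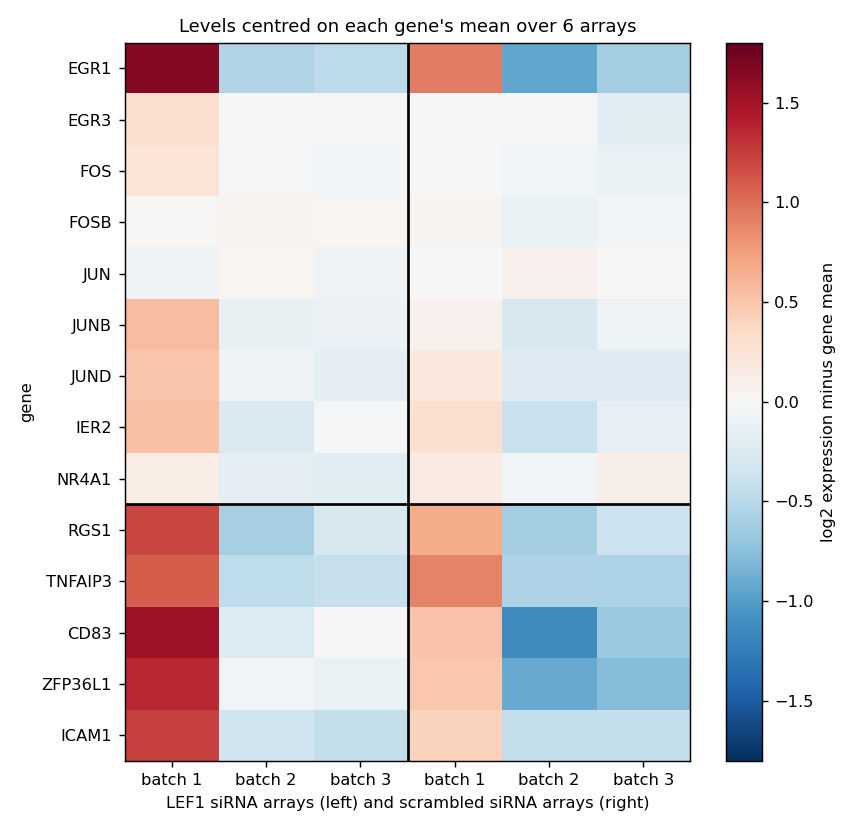
Log2 expression centred on each gene's mean over 6 arrays (colour), for the 9 immediate early genes (above the line) and the 5 genes nearest to EGR1 (below), with LEF1 siRNA arrays left and scrambled siRNA arrays right. Batch 1 is high in both groups for EGR1, JUNB, JUND and IER2, and for the 5 nearest genes by their choice. It is higher by less for EGR3, FOS and NR4A1.

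Set against LEF1 siRNA, 7 of the 30 other early response genes rose and 0 fell with batch as a block, where 6.73% of all genes rose and 1.70% fell. The list's median difference was 0.0619 against 0.0195 over all genes. Shares of all genes, here and for the lists below, were not matched for level. Of these 30 genes 22 lay above the median level, as did 98 of the 124 list genes in all. Probe sets above that median were called more often with the block, 3465 of 27307 with dim ones left out, against 3328 of 54613. ZFP36L1, an mRNA decay factor, rose by 0.798. BTG1, an antiproliferative gene, read 12.37, 12.04 and 11.68 with LEF1 siRNA, against 11.78, 11.37 and 11.20 with scrambled siRNA. Its difference was 0.579 (limma adjusted p = 0.000126 with the block). IER5 rose by 0.403 and KLF10, an early TGF-beta response gene, by 0.413 (limma adjusted p = 0.00124 and 0.000736 with the block). All 7 were higher in each of 3 batches, and none passed without the block. Of the 7, 5 passed under each of 4 other scalings, 5 passed with batch 1 left out, and 4 were among the 14 genes highest in batch 1. Scaled to the poly-A spike-ins, the list had 5 genes higher and 4 lower, against 2.75% and 13.9% of all genes, so the share lower was near that of all genes.

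The AP-1 partners had 3 of 14 measured genes higher and 0 lower, against 6.73% and 1.70% of all genes. Their median was 0.0566 against 0.0195 over all genes. CREM, a cAMP response factor, read 9.73, 9.79 and 9.95 with LEF1 siRNA, against 9.31, 9.40 and 9.62 with scrambled siRNA. These groups do not overlap, and the difference of 0.383 passed with the block (limma adjusted p = 0.00131). BATF, a lymphocyte AP-1 factor that pairs with JUN proteins, rose by 0.348 and ATF2 by 0.287 (limma adjusted p = 0.0128 and 0.0174 with the block). ATF2 did not pass under poly-A spike-in scaling (limma adjusted p = 0.0915 with the block) and BATF did not without batch 1 (0.073). On the poly-A scale the list had 2 genes higher and 2 lower, against 2.75% and 13.9% of all genes. Of the 6 EGR and NR4A relatives and EGR co-repressors 0 passed with the block, the nearest being NR4A3 at 0.122 and WT1 at -0.0279 (limma adjusted p = 0.476 and 0.904). At an unadjusted p below 0.05, 0 of these 6 passed without the block.

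Among serum response factor, its partners and cAMP response factors, 2 of 12 genes rose and 0 fell, against 6.73% and 1.70% of all genes. The list's median difference was 0.0718 against 0.0195 over all genes. ELK3, an ETS partner of serum response factor, read 8.55, 8.23 and 8.62 with LEF1 siRNA, against 7.66, 7.44 and 7.98 with scrambled siRNA. Its groups do not overlap and it rose by 0.77 (limma adjusted p = 1.9e-05 with the block, 0.172 without). The acetyltransferase gene EP300 rose by 0.378 (limma adjusted p = 0.00671 with the block).

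The kinase cascades and their inhibitors each had 1 gene that rose, a share near the 6.73% of all genes, while 1.70% of all genes fell. In the ERK cascade 1 of 14 genes rose and 1 fell. RASGRP3, which loads RAS with GTP in B cells, rose by 0.315 and HRAS fell by 0.303 (limma adjusted p = 0.00728 and 0.0145 with the block). On the poly-A scale 1 of the 14 rose and 3 fell, against 2.75% and 13.9% of all genes. In the JNK and p38 cascades 1 of 13 rose, MAP3K1 by 0.371 (limma adjusted p = 0.00192 with the block), and 0 fell. Of 14 feedback inhibitors 1 rose and 0 fell. It was DUSP2, a nuclear MAP kinase phosphatase, which read 10.15, 8.83 and 8.96 with LEF1 siRNA, against 9.43, 8.62 and 8.65 with scrambled siRNA. Its batch 1 arrays are the highest of each group, and its difference was 0.413 (limma adjusted p = 0.00723 with the block, and 0.0277 with batch 1 left out).

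Of 14 reported AP-1 and EGR targets 3 rose and 1 fell, against 6.73% and 1.70% of all genes. TXNIP rose by 0.466, IL2RA by 0.281 and HMOX1 by 0.236, while VEGFA fell by 0.273 (limma adjusted p = 0.0126, 0.0339, 0.0277 and 0.0249 with the block). IL2RA lost its call under the 4 other scalings, where its smallest limma adjusted p was 0.0684 with the block, and HMOX1 kept it with equal medians alone (0.0496). With batch 1 left out neither passed (limma adjusted p = 0.276 and 0.0694). Of 8 measured heat shock genes, which also respond to handling, 0 rose and 1 fell, against the same shares of all genes. HSPB1 read 10.04, 10.07 and 9.98 with LEF1 siRNA, against 10.65, 10.50 and 10.62 with scrambled siRNA (limma adjusted p = 0.000179 with the block). Between batches, DNAJB1, a co-chaperone gene chosen after its values were seen, read 9.77, 10.35 and 10.72 with LEF1 siRNA, against 9.96, 10.64 and 10.73 with scrambled siRNA. Its batch 1 arrays are the lowest of each group, by a mean of -0.744 against the other 4 arrays (limma batch adjusted p = 5.16e-05), a gap larger than those of IER2, JUND and JUNB and in the other direction. It was the only 1 of the 8 called for batch, and the part of handling in the batch 1 levels was not tested. On the poly-A scale 5 of the 8 fell, against 13.9% of all genes.

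**Figure D4:**
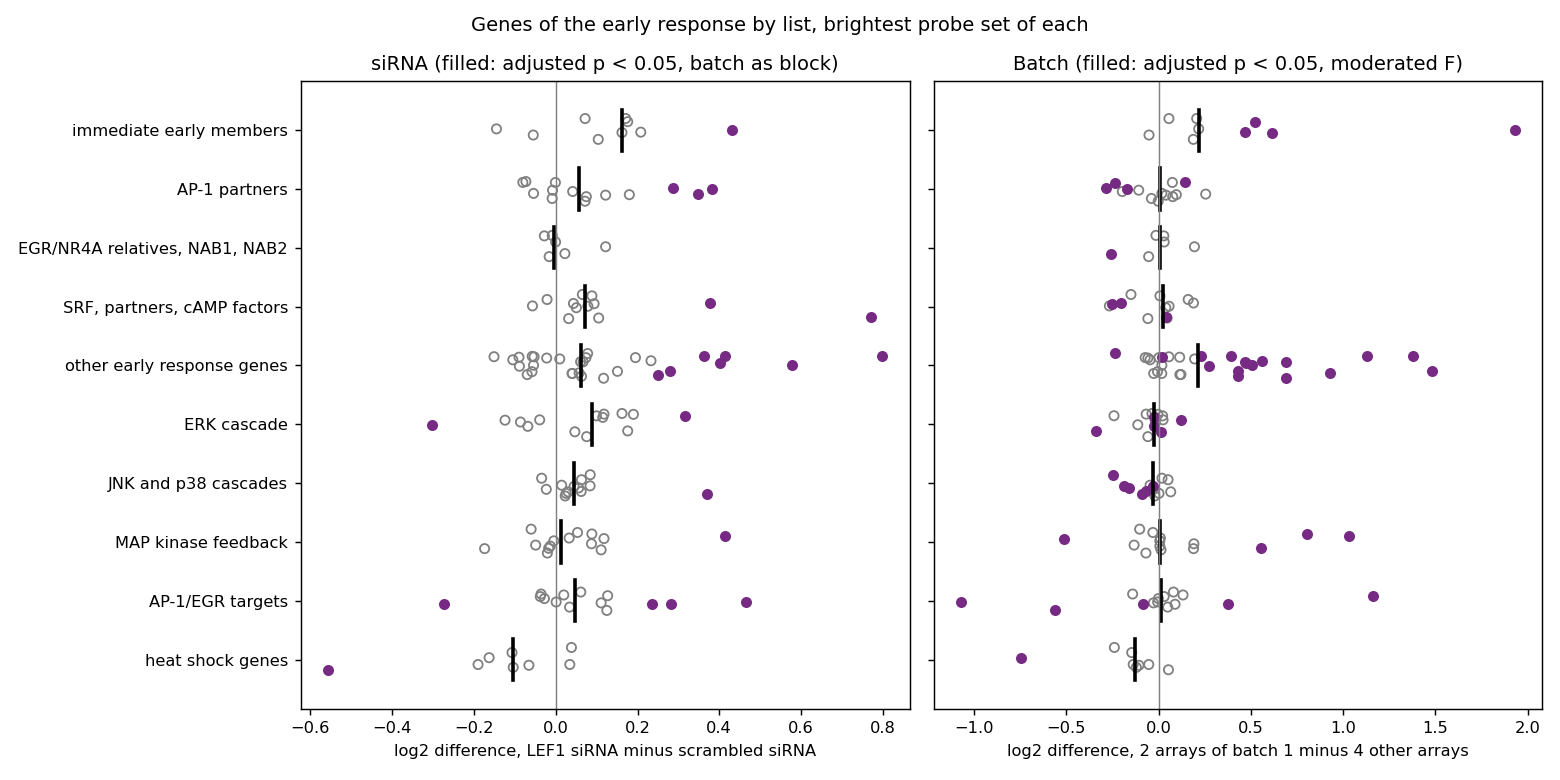
Log2 differences at the brightest probe set of each gene (points) by list, LEF1 siRNA minus scrambled siRNA on the left and the 2 arrays of batch 1 minus the 4 others on the right. Filled points passed an adjusted p of 0.05 (batch as a block on the left, moderated F for batch on the right), and black lines are medians. The immediate early genes and the other early response genes have batch medians of 0.217 and 0.213.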

How the data were processed

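The authors deposited log2 expression values of 54675 probe sets on each of 6 arrays. That the deposited values are log2 was read from their range of 5.45 to 15.0. Per the labels' protocols, biotinylated cRNA was made with a 3' in vitro transcription kit. Background correction, normalization and summarisation are not given in the sources used here. The 62 control probe sets were left out. Names came from the platform annotation, and those of probe sets with several genes (1801) or none (11721) were not used.

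All 54613 probe sets entered limma 3.58.1 (R 4.3.3), tested two-sided, without a block and with batch as a replicate block. Batch is a label shared by 1 array of each group. Deviations from group means correlated at 0.477, 0.493 and 0.621 within batches. The block leaves 2 residual and 12.0 prior degrees of freedom. The fits were checked on simulated data. The series' design text calls the replicates biological.

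Members and lists were chosen with earlier results of these data known. Named were the members at every probe set, up to 4 genes per list with the smallest p among those past the threshold (2 as values where none passed), and the 5 genes nearest in pattern to EGR1 and to JUN. Lists use the brightest probe set of each gene, and list sizes count genes named by a probe set here. Alternatives covered the block, scaling, leaving out dim probe sets, keeping 1 probe set for each gene, eBayes trend and robust options, weights per array, the threshold and leaving out arrays. The number of arrays limits the precision.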

Additional observations from a re-analysis of the deposited data

How the results depend on the processing

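Calls for these genes rest on batch as a replicate block. Without it 0 of the 19 member probe sets and 0 of 124 list genes passed, and 10 probe sets in all. With the replicate block the counts were 1 member, 3328 in all and 21 list genes. These 21 were 16.9% of the 124 list genes, 18 higher and 3 lower. The lists were chosen with earlier results of these data known, so this share is not an independent test. Of all genes at their brightest probe set, 6.73% were higher and 1.70% lower, a share not matched for level. With dim probe sets left out, 22 of 98 list genes passed with the block, against 3465 of 27307 probe sets. Adding the block to another setting gave, for members, all probe sets and list genes in that order, 1, 3315 and 19 after quantile normalization, 1, 2785 and 20 with equal medians, and 1, 3240 and 19 after cyclic loess. Poly-A spike-in scaling gave 3, 8797 and 29, leaving out dim probe sets 1, 3465 and 22, the brightest probe set per gene 1, 1949 and 23, eBayes with trend 1, 2767 and 20, and robust eBayes 1, 3437 and 22. A threshold of 0.1 gave 2, 4824 and 24. Leaving out batch 1, 2 or 3 gave 1, 3880 and 17, then 1, 1407 and 13, then 4, 3626 and 24. Without the block all probe sets numbered 23 after quantile normalization or cyclic loess, 5 at 1 probe set per gene, 6 with eBayes trend, 39 with array weights and 63 at a threshold of 0.1. In the last 2 settings 1 list gene passed. Leaving out arrays gave 0 to 8 probe sets, and 0 with LEF1 siRNA replicate 2, batch 1 or batch 2 left out. Of 591 member results under alternatives, 538 kept their direction and side of the threshold, 34 turned direction and 19 passed where the fit without block did not. Turned under poly-A spike-in scaling, also without the block (added after seeing the data), were the dimmest EGR1 probe set (-0.0698), FOS (-0.0154), FOSB (-0.048), JUN (-0.0269 and -0.0951), the dimmest JUND (-0.0921) and an NR4A1 probe set (-0.0813). The last also turned after quantile normalization (-0.0135) and cyclic loess (-0.00173). With both arrays of batch 1 left out, a JUN probe set read -0.00233, and with batch 2 left out the dimmest EGR1 probe set read -0.0143 and the dimmest JUND -0.0184. Leaving out arrays moved the EGR1 probe sets between -0.289 and 0.996, -0.129 and 0.493, and -0.0143 and 0.122, from the brightest down. The brightest turned where LEF1 siRNA replicate 1 was left out, which keeps the scrambled siRNA array of batch 1 unmatched. JUNB ran from -0.0148 to 0.324, IER2 from -0.0594 to 0.351, that JUN probe set from -0.00233 to 0.0728, and JUND from -0.0313 to 0.316, -0.203 to 0.0913, -0.265 to 0.033 and -0.0363 to 0.0916. Values near the median level of 6.91 may hold mostly background, which limits EGR3, FOS, FOSB and most JUN probe sets. The cause of these shifts was not tested.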
